A study of Homo sapiens with 6 samples.

Results

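The ABC drug efflux transporters described here are 9 genes: ABCB1, ABCC1, ABCC2, ABCC3, ABCC4, ABCC5, ABCG2, ABCA2 and ABCA3. They were chosen by name and not by a cut on their values, but with earlier results of these data known. All 9 were found among the 32364 Ensembl genes of the table. ABC (ATP-binding cassette) transporters are membrane proteins that hydrolyse ATP to move a substrate across a membrane. ABCB1 (P-glycoprotein), ABCC1 (MRP1) and ABCG2 (BCRP) carry chemotherapeutic drugs out of the cell, and ABCB1 and ABCG2 are known for their use as markers of drug resistance in acute myeloid leukemia and of hematopoietic stem cells. The other ABCC members export conjugated organic anions or nucleotide analogs, and ABCA2 and ABCA3 sit in the membranes of lysosomes and lysosome-related organelles.

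The measurements are mRNA sequencing libraries of Kasumi-1, a single line of human acute myeloid leukemia cells with the RUNX1-RUNX1T1 fusion. There were 3 libraries of control cells, which by the study's methods received the solvent DMSO, and 3 of cells incubated with 0.5 µM I13, a histone deacetylase (HDAC) inhibitor, for 48 h. Values are FPKM, the fragments on a gene scaled to the exon length of the gene and to the depth of the library, so levels of different genes can be set side by side. The study states independent repeats for its experiments in general, and the legend of its sequencing figure calls the panels representative of 3 independent experiments. The labels do not tie the libraries of a group to separate cultures, so p-values measure the spread between these samples, which may be technical. In bulk RNA a transporter expressed in fewer cells and a transporter expressed at less RNA per cell cannot be told apart.

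Library depth, recovered from the FPKM values, was between 16566742 and 17221345 fragments in control and between 15281052 and 16682550 in I13. Over genes averaging 10 FPKM or more, the first principal component (43.3% of the variance) placed I13 replicate 2 and control replicate 3 away from the remaining 4 libraries, and the second (20.5%) separated the groups. All 9 myeloblast markers were detected, led by MPO at 10241 to 12450 FPKM, and 14 of 15 markers of other cell types stayed under 3 FPKM in every library. The exception was the epithelial adhesion molecule EPCAM at 20.8 to 26.5 FPKM. Of the 15 markers, 3 were at 0 in every library, and the sum of the other markers without EPCAM was 2.78 to 3.03 FPKM in control and 2.27 to 3.18 FPKM in I13.

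The members covered a wide range of mRNA levels. ABCC1 was the most abundant at a mean of 18.0 FPKM over the 6 libraries, followed by ABCC4 at 9.97, ABCC5 at 7.99, ABCA2 at 3.35, ABCA3 at 2.47, ABCB1 at 2.12 and ABCC2 at 0.272 FPKM. ABCC3 had 2 fragments over all libraries, and ABCG2 had none. ABCC1, ABCC4 and ABCC5 together held 81.1 to 82.5% of the summed FPKM of the members in control and 80.7 to 81.6% in I13. ABCC1 stood 1.81 times above ABCC4, ABCC5 2.38 times above ABCA2, ABCA2 1.36 times above ABCA3 and ABCB1 7.79 times above ABCC2, and in each of these pairs the ranges over the 6 libraries did not overlap. ABCC4 was 1.25 times ABCC5 with overlapping ranges, although it was the higher of the pair in 6 of 6 libraries. ABCA3 was 1.17 times ABCB1, with overlapping ranges and the order held in 5 of 6 libraries, so this pair did not differ beyond its spread. Among 14979 protein-coding genes above 0, ABCC1 ranked 2219th, ABCC4 3924th, ABCC5 4676th, ABCA2 7480th, ABCA3 8205th, ABCB1 8496th and ABCC2 11027th by mean FPKM.

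**Figure D1:**
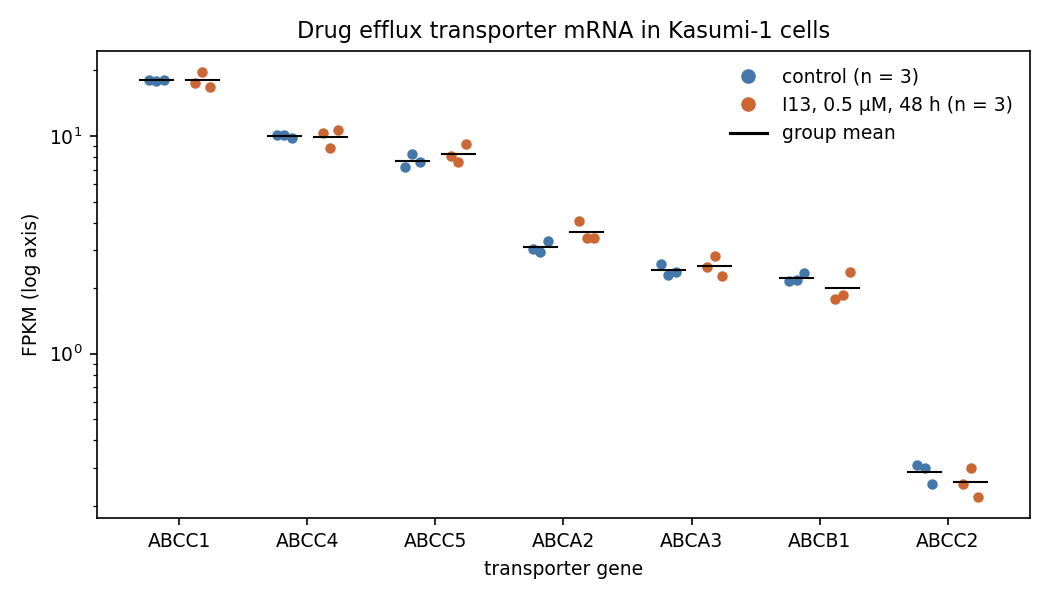
FPKM of the 7 transporter genes that passed the filter on low values, on a log axis, with 1 point per library (control and I13, n = 3 each) and a bar at each group mean. The genes spread from ABCC1 near 18.0 FPKM to ABCC2 near 0.272 FPKM, and the control and I13 points of every gene except ABCA2 overlap.

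The comparison of I13 with control asks whether the HDAC inhibitor changed transporter mRNA. Of the 9 members, 7 had a mean of at least 0.1 FPKM and were tested with limma on log2(FPKM + 0.1), while ABCC3 and ABCG2 were too low to test. No member passed at the Benjamini-Hochberg adjusted p, where 0% of all 18726 tested genes were called, and none passed at an unadjusted p under 0.05, where 5.14% of all tested genes passed (2.55% higher and 2.59% lower in I13). With voom on the recovered fragments, 0 of the 7 passed the adjusted p, and 0.029% of all genes passed it together with the fold threshold. At the unadjusted p 1 member, ABCA2, passed, against 5.36% of all genes. ABCA2 was also the only member whose groups did not overlap, against 9.52% of all tested genes. No member reached an absolute log2 fold change of 0.58, against 13.1% of all tested genes. Fold changes were above 0 in 3 members, against 51.8% of all tested genes, and below 0 in 4, with a median log2 fold change of -0.0028 against 0.0058 over all tested genes. The 95% intervals of ABCB1, ABCC1, ABCC4, ABCC5, ABCA2 and ABCA3 all lay within 0.58 of 0 on the log2 scale, so a change of that size in either direction lay outside the interval of each of these genes. The interval of ABCC2 was wider than that.

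**Figure D2:**
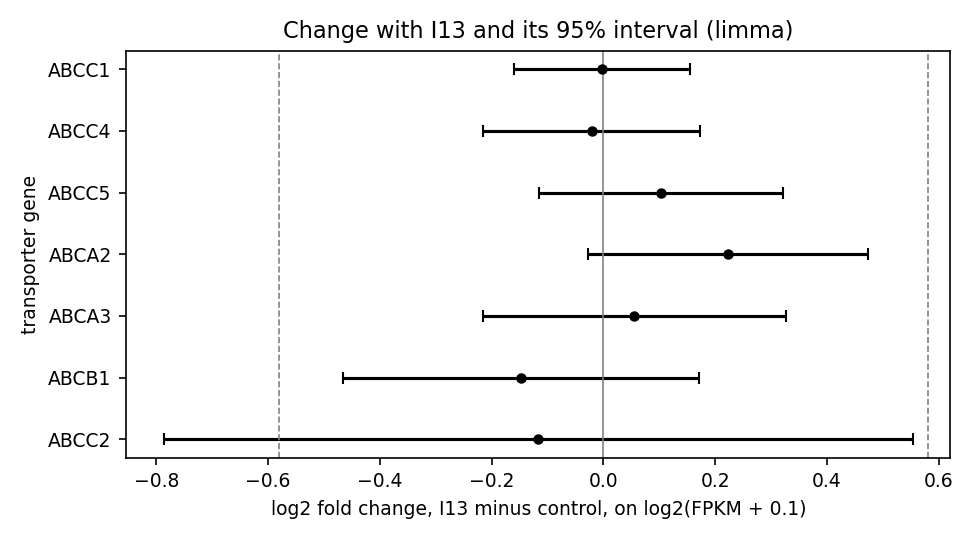
Log2 fold change of each tested transporter (I13 minus control, on log2(FPKM + 0.1)) as a point with its 95% interval from limma as a bar, with dashed lines at 0.58 below and above 0. Every interval crosses 0, from -0.47 to 0.17 for ABCB1 to -0.028 to 0.47 for ABCA2, and the interval of ABCC2 alone reaches past a dashed line.

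ABCB1 (ENSG00000085563, chr7:87503633-87713323, minus strand of GRCh38) encodes P-glycoprotein, the classical multidrug resistance pump for anthracyclines, etoposide and vinca alkaloids. Its level was 2.15, 2.18 and 2.34 FPKM in the control libraries and 1.78, 1.87 and 2.38 FPKM in the I13 libraries, from 165 to 225 fragments per library. I13 replicates 1 and 2 lay below every control library, and I13 replicate 3 lay above every control library, so the groups overlapped. The means were 2.22 ± 0.102 and 2.01 ± 0.321 FPKM (SD, n = 3 each). The log2 fold change was -0.15 (SE 0.14), with a 95% interval from -0.47 to 0.17, that is 0.724 to 1.13 times the control level (limma, adjusted p = 0.983). An exact permutation test gave p = 0.4, where 3 against 3 libraries cannot go below 0.1. Leaving out I13 replicate 3 brought it to -0.27 (limma, adjusted p = 0.989), and leaving out I13 replicate 1 brought it to -0.071 (adjusted p = 1.00). Within the 4 libraries that stood together it was -0.067, and between control replicate 3 and I13 replicate 2 it was -0.31. Over the main fit and 18 alternatives the upper bound of the interval reached at most 0.40.

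ABCB1 has 2 promoter windows in RefSeq (250 bases before to 50 after a start, GRCh38.p14). The window at the distal start has 37.7% GC and 1 CpG, and the window at the proximal start, chr7:87600835-87601134, has 55.3% GC and 16 CpGs. The letters CCAAT, searched on both strands with overlaps counted, occur at 2 places in the proximal window and not in the distal window, against 34.6% of all 35116 windows that hold them at least once. Neither ABCB1 window holds GGGCGG or TATAAA. The pair of stretches below holds both matches. An inverted CCAAT sequence ahead of the ABCB1 start is a known binding sequence of NF-Y, a factor linked to the response of this gene to HDAC inhibitors. Only the stretch at -79 holds the inverted form, while the stretch at -238 holds CCAAT in the direct orientation. Both are on the minus strand, with CCAAT or its reverse complement ATTGG in capitals, and its first base lies at -238 and at -79, counted from the start.
ABCB1, chr7:87601105-87601134: gttgaaatgtccCCAATgattcagctgatg
ABCB1, chr7:87600946-87600975: gtggtgaggctgATTGGctgggcaggaaca
A match of letters is a description of the sequence, and binding was not measured. NFYA, which encodes the sequence-specific subunit of NF-Y, was at 38.2 ± 0.750 FPKM in control and 37.5 ± 0.411 FPKM in I13 (SD, n = 3 each), with a log2 fold change of -0.026 (SE 0.042). KAT2B (PCAF), the acetyltransferase that NF-Y recruits there, was at 1.67 ± 0.310 and 1.37 ± 0.113 FPKM, with overlapping groups and a log2 fold change of -0.25 (SE 0.17, limma, adjusted p = 0.983). NFYA and KAT2B are members of a list described further on, singled out for their known link to ABCB1 after their values had been seen.

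ABCG2 (ENSG00000118777, chr4:88090264-88231322, minus strand), the breast cancer resistance protein and the pump behind the side population of stem cells, had 0 fragments in each of the 6 libraries. At 3 fragments over a group, a count of 0 allows up to 0.0117 FPKM in control and 0.0124 FPKM in I13, or 0.00602 FPKM over all 6 libraries. This limit and those that follow cover counting error only. No fold change can be given. RefSeq lists 5 promoter windows for ABCG2, with 40.3 to 72.3% GC and 3 to 35 CpGs, so the absence of fragments went with windows on either side of the median of 58.7% GC and 14 CpGs over all windows.

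The ABCC genes encode the multidrug resistance-associated proteins, which export glutathione, glucuronide and sulfate conjugates and, for some members, nucleotide analogs. ABCC1 (ENSG00000103222, chr16:15949577-16143074, plus strand) effluxes anthracyclines together with glutathione. It was at 18.0, 17.9 and 18.1 FPKM in control and at 17.6, 19.7 and 16.8 FPKM in I13, from 1949 to 2487 fragments per library. The 3 control libraries lay between the lowest and the highest I13 library. Both means were 18.0 FPKM, with an SD of 0.0869 in control and 1.48 in I13, and the log2 fold change was -0.0028 (SE 0.067, 95% interval -0.16 to 0.15, limma, adjusted p = 1.00). The interval corresponds to 0.895 to 1.11 times the control level.

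ABCC4 (ENSG00000125257, chr13:95019829-95301475, minus strand) exports cyclic nucleotides and nucleoside monophosphate analogs, among them thiopurine metabolites. It was at 10.1, 10.2 and 9.80 FPKM in control and at 10.3, 8.79 and 10.6 FPKM in I13. I13 replicate 2 was the lowest library, and the other I13 libraries were the highest, so the groups overlapped. The means were 10.03 ± 0.201 and 9.91 ± 0.983 FPKM (SD, n = 3 each), with a log2 fold change of -0.021 (SE 0.082, 95% interval -0.21 to 0.17, limma, adjusted p = 1.00). ABCC5 (ENSG00000114770, chr3:183919934-184018015, minus strand), another exporter of cyclic nucleotides and nucleotide analogs, was at 7.18, 8.28 and 7.62 FPKM in control and at 8.08, 7.58 and 9.17 FPKM in I13. The highest library was I13 replicate 3 and the lowest was control replicate 1, and the other libraries of the groups were interleaved. The log2 fold change of ABCC5 was 0.10 (SE 0.092, 95% interval -0.12 to 0.32), and the exact permutation test gave p = 0.5. It was 0.027 without I13 replicate 3, 0.055 without control replicate 1, 0.16 without I13 replicate 2 and 0.16 without control replicate 2, with no call in any of them.

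ABCC2 (ENSG00000023839, chr10:99782640-99852594, plus strand), the exporter of bilirubin glucuronides at the canalicular membrane of hepatocytes, was low in these cells. It was at 0.307, 0.299 and 0.252 FPKM in control and at 0.252, 0.298 and 0.221 FPKM in I13, which is 33, 32 and 26 and 25, 31 and 21 fragments. The groups overlapped, and the log2 fold change of -0.12 (SE 0.28) had an interval from -0.79 to 0.55 (limma, adjusted p = 1.00). This interval reached more than 0.58 below 0, while limma without a variance trend gave -0.41 to 0.17 from the same libraries. Leaving out I13 replicate 3 brought the log2 fold change to -0.042, and leaving out I13 replicate 2 to -0.20. Its RefSeq promoter window has 45.0% GC and 1 CpG, fewer CpGs than the window of any other member except the distal ABCB1 window, which also has 1. It holds TATAAA, which occurs in 11.5% of all windows, and neither GGGCGG nor CCAAT. The 250 bases ahead of the start are shown as the CpG-poor end of the range, on the plus strand with TATAAA in capitals. These letters lie near the far end of the window, away from the start.
ABCC2, chr10:99782390-99782639: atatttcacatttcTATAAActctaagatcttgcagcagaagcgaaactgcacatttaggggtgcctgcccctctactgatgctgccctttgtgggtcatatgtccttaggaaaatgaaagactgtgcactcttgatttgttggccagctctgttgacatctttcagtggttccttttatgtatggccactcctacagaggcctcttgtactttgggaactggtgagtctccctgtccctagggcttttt
ABCC3 (ENSG00000108846, chr17:50634777-50692252, plus strand), a basolateral exporter of bile acid and drug glucuronides, had 1 fragment in control replicate 1, 1 in control replicate 3 and none in the other 4 libraries. Both groups were under 3 fragments, which correspond to 0.00612 FPKM in control and 0.00652 FPKM in I13, so no fold change is given.

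ABCA2 (ENSG00000107331, chr9:137007227-137028922, minus strand), a lysosomal lipid transporter linked to resistance to estramustine and mitoxantrone, was the member with the highest fold change. It was at 3.03, 2.93 and 3.29 FPKM in control and at 4.07, 3.40 and 3.38 FPKM in I13, from 578 to 746 fragments per library. All 3 I13 libraries lay above all 3 control libraries, by a margin between control replicate 3 and I13 replicate 3 that was small beside the range within each group. The means were 3.08 ± 0.187 and 3.62 ± 0.390 FPKM (SD, n = 3 each), with a log2 fold change of 0.22 (SE 0.11, 95% interval -0.028 to 0.47, limma, adjusted p = 0.954). An exact permutation test gave p = 0.1, the smallest that 3 against 3 libraries allow. Voom gave a log2 fold change of 0.23 (95% interval 0.037 to 0.42, adjusted p = 0.767), and its adjusted p was 0.221 with a term for the pair of libraries that stood apart. The adjusted p of ABCA2 ranged from 0.221 to 1.00 over the alternatives. Within the 4 libraries that stood together the log2 fold change was 0.31, and between control replicate 3 and I13 replicate 2 it was 0.049. Without I13 replicate 1, the highest library, it was 0.14. The share of tested genes that did not overlap and were higher in I13 was 4.88%.

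ABCA2 has 2 RefSeq windows, at 64.3% GC with 16 CpGs and at 86.7% GC with 66 CpGs. The second holds GGGCGG at 6 places on both strands with overlaps counted, a sequence that 45.0% of all windows hold at least once, and more CpGs than 99.98% of them. The part of it ahead of annotated exons is shown as the CpG-rich end of the range, on the minus strand with GGGCGG in capitals where it occurs.
ABCA2, chr9:137028289-137028487: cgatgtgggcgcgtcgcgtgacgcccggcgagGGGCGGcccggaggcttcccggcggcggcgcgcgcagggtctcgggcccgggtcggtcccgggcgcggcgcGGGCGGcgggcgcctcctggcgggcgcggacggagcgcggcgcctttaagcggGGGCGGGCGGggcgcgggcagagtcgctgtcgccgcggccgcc
Of the other matched members, ABCC4 has 79.7% GC and 47 CpGs, ABCA3 78.0% GC and 42 CpGs with GGGCGG at 2 places, and ABCC5 65.7% GC and 26 CpGs with GGGCGG and TATAAA at 1 place each. In all, 13 windows of 7 members were matched by symbol, and ABCC1 and ABCC3 were not matched.

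ABCA3 (ENSG00000167972, chr16:2275881-2340746, minus strand) loads lipids into lamellar bodies in lung and is found in lysosomes of leukemic blasts. It was at 2.57, 2.30 and 2.37 FPKM in control and at 2.49, 2.80 and 2.26 FPKM in I13, from 270 to 365 fragments. I13 replicate 2 was the highest and I13 replicate 3 the lowest library, with all control libraries between them. The log2 fold change was 0.055 (SE 0.11, 95% interval -0.22 to 0.33, limma, adjusted p = 1.00).

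The members also varied among the libraries of a group, and for each of the 7 tested members the coefficient of variation was larger in I13 than in control. The same held for 51.9% of all tested genes and for 54.2% of the 11517 with a mean of at least 1 FPKM. For ABCC1 the coefficient of variation was 0.482% in control and 8.20% in I13, beside 2.08% and 2.14% that counting error alone would give, and for ABCB1 it was 4.59% and 16.0%, beside 6.76% and 7.34%. The control spread of both genes was thus below counting error. With 3 libraries a group this is a description and was not tested. ABCC1 and ABCC4 moved in opposite directions across the 6 libraries (Pearson r of -0.97), and ABCC1 and ABCA3 in the same direction (r of 0.82). These were the most negative and the most positive of 21 pairs, and the points share their library and its depth.

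I13 replicate 2, which stood apart on the first principal component, had the highest ABCC1 and ABCA3 and the lowest ABCC4 of all libraries. The pair that stood apart was shifted on average by 0.10 (log2) in ABCC1 and by -0.15 in ABCC4, against the other libraries of their groups. Both shifts lay mostly in I13 replicate 2. There ABCC1 was at 19.7 FPKM, beside 17.6 and 16.8 in the other I13 libraries, and ABCC4 at 8.79, beside 10.3 and 10.6. In control replicate 3, ABCC1 was at 18.1 FPKM, beside 18.0 and 17.9, and ABCC4 at 9.80, beside 10.1 and 10.2. Over 11506 genes averaging 1 FPKM or more, the averaged shift of the pair correlated with the GC content of the transcript (r of 0.36). Its median ran from -0.19 in the fifth of genes with the lowest GC to 0.11 in the fifth with the highest. The transcripts of ABCC4 and ABCC1 have 43.2% and 54.9% GC. ABCB1 has 43.1% GC and was shifted by -0.014, ABCC2 44.9% and by 0.024, and ABCC5 50.8% and by -0.099. ABCA3 has 60.4% GC and was shifted by 0.098, and ABCA2 63.7% and by 0.0094. The log2 fold change of I13 against control had an r of 0.00069 with GC content over the same genes. The part of GC content in the members' values was not tested. Without I13 replicate 2 the sign of the log2 fold change turned in ABCC4, to 0.062, and in ABCA3, to -0.021, both still short of any call.

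**Figure D3:**
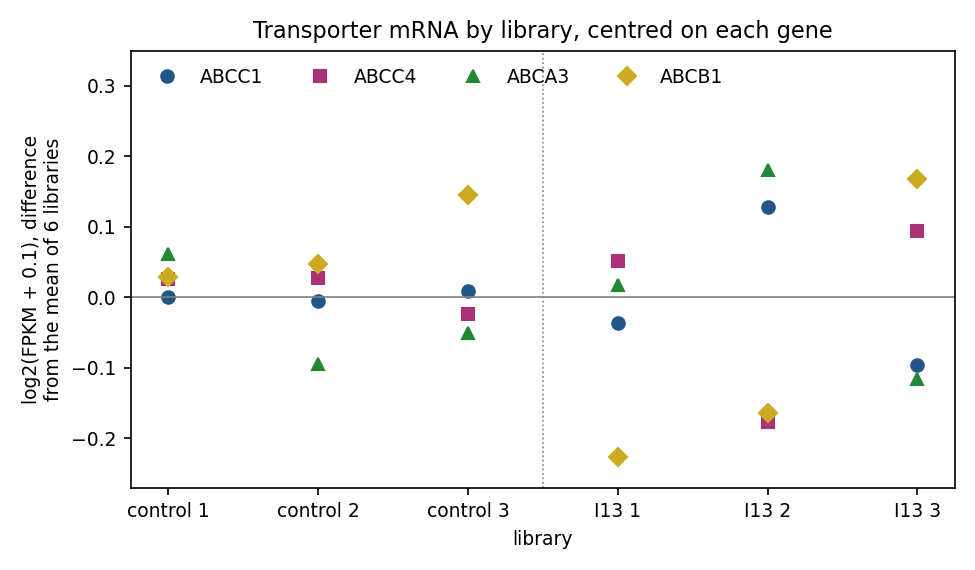
Level of ABCC1, ABCC4, ABCA3 and ABCB1 in each library as log2(FPKM + 0.1), centred on the gene's mean over the 6 libraries, with control on the left of the dotted line and I13 on the right. ABCC1 and ABCC4 lie on opposite sides of 0 in I13 replicates 1, 2 and 3 (r of -0.97 over 6 libraries), and ABCB1 is low in I13 replicates 1 and 2 and high in I13 replicate 3.

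The genes whose level across the 6 libraries was most like that of ABCC1, among 9676 protein-coding genes averaging 1 FPKM or more, were NSDHL (r of 0.992), a sterol dehydrogenase of cholesterol synthesis, RPL12 (0.982), a ribosomal protein, and ERAL1 (0.974), a mitochondrial ribosome assembly factor. For ABCB1 they were JAG1 (0.984), a Notch ligand, SETD9 (0.975) and CDKN2A (0.962), the cyclin-dependent kinase inhibitor locus. With 6 libraries and so many genes searched, values of r this high describe the libraries and were not tested.

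The exons of no other annotated gene shared bases with those of a member. The neighbouring paralogs were low, with ABCB4, the phospholipid transporter beside ABCB1, at 0.00805 to 0.0930 FPKM and ABCC6, the paralog beside ABCC1, at 0.0158 to 0.0797 FPKM. Their fragments numbered 1 to 12 and 2 to 10 per library, against at least 165 for ABCB1 and 1949 for ABCC1.

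The rest of the ABC family was described through a list of 38 other genes, of which 32 were in the table. At least 0.1 FPKM was reached by 15, and these were tested. None passed the unadjusted p by limma or by voom, against 5.14% and 5.36% of all tested genes, and none passed the adjusted p. None had groups that did not overlap, against 9.52% of all tested genes. Their log2 fold changes ran from -0.095 to 0.21, with 8 above 0, 7 below and a median of 0.0012. The most abundant were ABCF1 and ABCF2, which lack membrane spans and act on ribosomes. ABCF1 was at 32.0 ± 0.955 FPKM in control and 32.8 ± 0.265 in I13, and ABCF2 at 27.1 ± 0.997 and 27.1 ± 1.73 FPKM (SD, n = 3 each). Both stood above ABCC1, the leading drug transporter. Of the 32 genes, 18 stayed under 1 FPKM in every library and 5 of these were at 0 throughout.

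**Figure D4:**
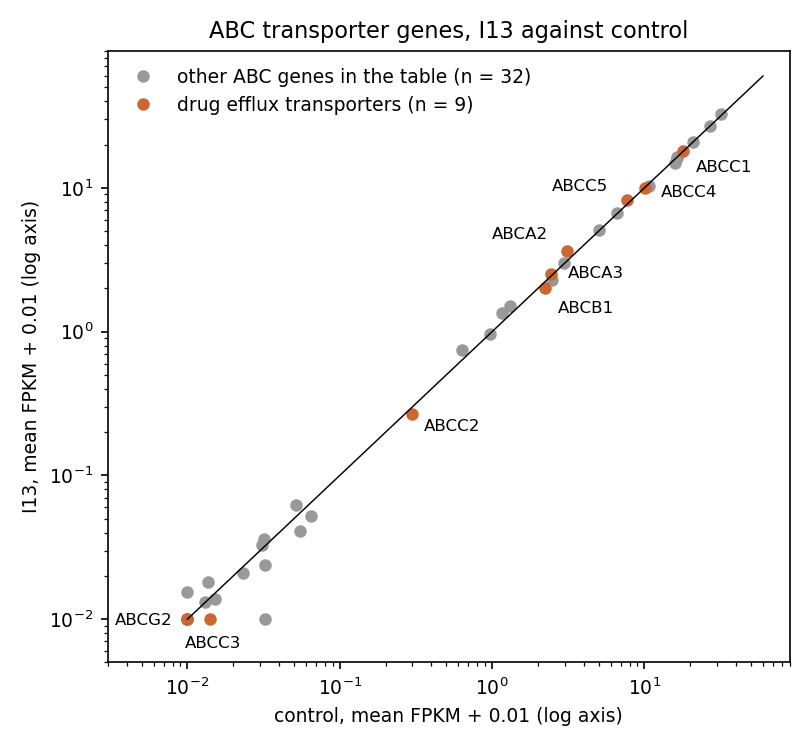
Mean FPKM + 0.01 in control and in I13 (n = 3 libraries each) on log axes for the 9 drug efflux transporters (orange, labelled) and the 32 other ABC genes in the table (grey), with the line of equal levels. The tested transporters lie along the line, with ABCA2 above it at 3.08 and 3.62 FPKM and ABCB1 below it at 2.22 and 2.01 FPKM, and ABCG2 sits at the lower left corner with 0 FPKM in both groups.

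A list of 29 transcription factors and cofactors reported at promoters of drug transporters had 27 tested members. No member passed the unadjusted p in limma, against 5.14% of all tested genes, and none passed the adjusted p. Of the 27, 12 were above and 15 below 0, and the median log2 fold change was -0.023. The most abundant were YBX1, a Y-box protein named for its binding of the inverted CCAAT sequence, at 1373 ± 86.9 FPKM in control and 1444 ± 40.2 FPKM in I13, and the oncogene MYC at 399 ± 34.4 and 411 ± 12.5 FPKM (SD, n = 3 each). In voom 1 member passed the unadjusted p, CEBPB, a myeloid differentiation factor (log2 fold change 0.30, voom adjusted p = 0.926), which is 1 of 27 against 5.36% of all genes in voom. CEBPB was at 7.60, 7.27 and 6.11 FPKM in control and at 8.03, 11.2 and 6.93 FPKM in I13. The groups overlapped, I13 replicate 2 was the highest library, and within the 4 libraries that stood together the log2 fold change in limma was 0.0045.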

How the data were processed

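Control and I13-treated Kasumi-1 cells (3 libraries each) were grouped by the sample labels. The authors extracted RNA with Trizol, prepared stranded mRNA libraries and deposited FPKM values. The submitters' processing notes name Trimmomatic, HISAT2, Cufflinks, HTSeq and hg38. Annotation, strand setting and versions were not given in the sources used here.

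FPKM were used as deposited. Dividing out GENCODE 29 exon lengths gave whole fragments for 25773 of 27002 genes above 0 (95.4%, tolerance 0.01), and 1319 more through the step that their values share. Differential expression was computed with limma 3.58.1 in R 4.3.3 on log2(FPKM + 0.1), as 2 groups with a variance trend, over the 18726 genes averaging 0.1 FPKM or more, with Benjamini-Hochberg adjustment. Genes were called at an adjusted p under 0.05 and a log2 fold change of 0.58 or more in size, or at the unadjusted p alone. Limma's voom was run on 13811 genes averaging 10 fragments or more. No count test served as the main test, since the deposited unit is FPKM. Exact permutation tests were two-sided and intervals cover 95%. The scripts were tested on simulated data.

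The members and lists were chosen with earlier results of these data known. Named genes are the members, genes of each list at an unadjusted p under 0.05 or otherwise its 2 most abundant, close paralogs and the 3 genes most like ABCC1 and ABCB1. NFYA, KAT2B, CEBPB, HDAC6, HDAC9, GSTM3 and GSTM4 were added after their values were seen, as were the alternatives for single listed genes. The settings tried were an unfiltered table, a minimum of 1 FPKM, pseudocounts of 0.01 and 1, median and quantile scaling, no trend, robust variances, a replicate block, each library left out, 4 libraries, voom, and voom with a term for the pair that stood apart. The pair that stood apart was picked from the first principal component of these same libraries and not from the labels. Replicate numbers did not pair the samples. Promoter windows are those of RefSeq on GRCh38.p14.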

Additional observations from a re-analysis of the deposited data

How the results depend on the processing

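All values of the transporter genes stayed short of the adjusted threshold in limma and in the alternatives run, and 118 of 125 kept their direction. The sign turned for ABCC1 without control replicate 3 (0.00085), without I13 replicate 1 (0.015) and without I13 replicate 3 (0.044), for ABCC4 without I13 replicate 2 (0.062) and in the 4 libraries that stood together (0.046), and for ABCA3 without I13 replicate 2 (-0.021) and in those 4 libraries (-0.033). With 1 library left out, log2 fold changes ran from -0.068 to 0.044 for ABCC1, from -0.073 to 0.062 for ABCC4 and from -0.021 to 0.13 for ABCA3, and without a change of sign from -0.27 to -0.071 for ABCB1, from 0.027 to 0.16 for ABCC5, from -0.20 to -0.042 for ABCC2 and from 0.14 to 0.27 for ABCA2. The 95% intervals of ABCB1, ABCC1, ABCC4, ABCC5 and ABCA3 lay within 0.58 of 0 in all 19 fits. That of ABCA2 reached 0.64 in the 4 libraries. For ABCC2, with 21 to 33 fragments, the upper bound was under 0.58 in 9 of 18 fits and the lower bound within 0.58 of 0 in 2, and without a trend the interval was -0.41 to 0.17. The number of transporters at the unadjusted p was 1 in voom, where 740 of all 13811 genes passed. It was also 1 in voom with the added term, where 1419 of the 13811 genes passed. Over all genes, 963 of 18726 passed the unadjusted p, and 582 of 11517 did so at a minimum of 1 FPKM, where fewer genes were tested. The number was 1513 of 18811 in 4 libraries and 764 to 1233 with 1 library left out. At the adjusted p and fold threshold, 0 became 9 without a trend, 4 in voom, 15 in voom with the added term and 0 to 2 with 1 library left out (2 without I13 replicate 1). Apart from the smaller number of genes tested at a minimum of 1 FPKM, the cause of these differences was not tested.

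With the replicate number as a block, 0 transporters and 862 genes passed the unadjusted p and none the adjusted p and fold threshold. Same-numbered libraries deviated from their group means with correlations of 0.083, -0.070 and -0.017 over 11517 genes, so the block rests on a shared number only, and control replicate 2 correlated best with I13 replicate 3 (0.085).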

Other observations

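Genes of drug uptake, drug targets and conjugation were read beside the transporters. A list of 16 genes of cytarabine uptake and activation had 14 tested members, of which 1 passed the unadjusted p in limma and in voom (against 5.14% and 5.36% of all genes) and none the adjusted p, with 10 above and 4 below 0 and a median log2 fold change of 0.034. The member that passed, SLC28A3, encodes the concentrative nucleoside transporter CNT3. It was at 2.22, 1.92 and 1.55 FPKM in control and at 1.05, 1.17 and 1.27 FPKM in I13, from 85 to 194 fragments. All I13 libraries lay below all control libraries. The log2 fold change was -0.65 (SE 0.17, 95% interval -1.04 to -0.26, limma, adjusted p = 0.787). It was -0.79 within the 4 libraries that stood together and -0.38 between control replicate 3 and I13 replicate 2, and -0.78 to -0.53 with 1 library left out. The adjusted p ranged from 0.0280, in voom with a term for the pair of libraries that stood apart, to 1.00 over the 18 alternatives. In voom with that term 15 of all 13811 genes passed the adjusted p and fold threshold. In voom without that term the adjusted p of SLC28A3 was 0.134. The share of tested genes lower in I13 at the unadjusted p was 2.59%.

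Of 10 genes for the targets and handling of anthracyclines and etoposide, which are drugs that ABCB1 and ABCC1 export, 7 were tested. None passed the unadjusted p by limma or voom, against 5.14% and 5.36% of all tested genes, with a median log2 fold change of -0.011. The topoisomerase TOP2A was at 62.5 ± 3.79 FPKM in control and 64.6 ± 7.71 in I13, and TOP1 at 48.3 ± 1.85 and 47.7 ± 2.81 FPKM (SD, n = 3 each). Of 18 genes of glutathione synthesis and conjugation, which makes substrates of the ABCC pumps, 16 were tested. Again none passed the unadjusted p by limma or voom, against the same 5.14% and 5.36%, with a median of -0.017. GSTP1 was at 222 ± 22.8 FPKM in control and 235 ± 16.6 in I13, and GSTO1 at 63.0 ± 3.07 and 60.9 ± 2.39 FPKM. The groups of GSTM3 (18.4 to 19.4 FPKM in control, 17.4 to 18.1 in I13) and GSTM4 (0.669 to 0.778 and 0.809 to 0.991 FPKM) did not overlap, in opposite directions, which is 2 of 16 genes against 9.52% of all tested genes.

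Of the 11 HDAC genes, which include the targets of the inhibitor class, none passed the unadjusted p in limma, against 5.14% of all tested genes. None passed the adjusted p, with 4 above and 7 below 0 and a median of -0.073. HDAC1 was at 56.7 ± 2.15 FPKM in control and 60.1 ± 1.75 in I13, and HDAC3 at 13.7 ± 0.813 and 14.3 ± 0.479 FPKM. HDAC9 was at 0.559, 0.613 and 0.599 FPKM in control and at 0.328, 0.370 and 0.541 FPKM in I13, without overlap, and was the 1 of 10 members to pass the unadjusted p in voom (log2 fold change -0.55, voom adjusted p = 0.433), against 5.36% of all genes in voom. HDAC6 did not overlap either (5.86 to 6.73 FPKM in control, 5.48 to 5.76 in I13), with a log2 fold change of -0.12 (SE 0.079) in limma and -0.037 within the 4 libraries that stood together. Groups without overlap thus numbered 2 of 11, against 9.52% of all tested genes.

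Among 9 myeloblast markers, 3 passed the unadjusted p in limma, against 5.14% of all tested genes, 4 did so in voom, against 5.36%, and none passed the adjusted p in either. CD33 (log2 fold change 0.20, limma, adjusted p = 0.890) and ANPEP (CD13; 0.35, adjusted p = 0.540) were higher in I13, and CTSG, a neutrophil granule protease, was lower (-0.29, adjusted p = 0.742). CD33 no longer passed without I13 replicate 1 (limma, unadjusted p = 0.0625). In voom with a term for the pair of libraries that stood apart, ANPEP (adjusted p = 0.00133) and CTSG (adjusted p = 0.00394) passed the adjusted p. That pair was picked from the first principal component of these same libraries. In voom without the term the adjusted p was 0.0747 for ANPEP and 0.171 for CTSG. The summed level of the 9 markers was 15118 to 16180 FPKM in control and 13625 to 15495 FPKM in I13. Of 20 markers of other cell types, 15 were in the table and 5 were tested. CD3D, a T cell marker, passed the unadjusted p (0.313 to 0.376 FPKM in control and 0.129 to 0.141 in I13, limma, adjusted p = 0.890), with 2 to 6 fragments per library. It was the 1 of 5 to do so, against 5.14% of all tested genes. It no longer passed without control replicate 2 (limma, unadjusted p = 0.0739) or in the 4 libraries that stood together (unadjusted p = 0.0722).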
